A study of Mus musculus with 5 samples.

Results

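The PARP family of ADP-ribosyltransferases was described on 9 member genes in cells washed from the mouse peritoneal cavity after injection of vaccine adjuvants. The members were Parp1, Parp2, Parp3 and Parp8, and the interferon-linked Parp9, Parp10, Parp11, Parp12 and Parp14. They were found by gene symbol through the RefSeq accession that each array probe carries, which gave 9 probes, 1 for each gene, and the 9 members stand among 20121 genes measured on all arrays. Each member had 1 spot on each array, and every member was well above background on all 5 arrays.

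Female BALB/c mice received an intraperitoneal injection, and the peritoneal cells were collected 2 h later. The 5 treatments were PBS, AEPS at 50 µg (a root polysaccharide of the plant Actinidia eriantha), OVA at 25 µg (ovalbumin, a model antigen), OVA at 25 µg with AEPS at 50 µg, and OVA at 25 µg with Alum at 200 µg (an aluminium salt adjuvant). All treatments were compared in normal animals, with no transgene or deletion named in the labels. Each treatment was 1 Cy3-labelled Agilent array, so the spread between animals could not be estimated, no test between treatments was possible, and the labels do not say whether RNA of several mice was pooled.

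A level is the log2 of the scanner's processed signal minus the 75th percentile of that array, so that 0 is the brightness of the probe at that percentile. A difference of at least 2-fold, 1 on the log2 scale, was used as the call. The error given with each value covers the scanner's own error of a spot only, and its median for a difference of 2 arrays was 0.20 (SE), which gives a 95% interval of about 0.40 to each side. Levels of different genes were not compared, since each probe has its own brightness.

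PARP enzymes take ADP-ribose from NAD and attach it to proteins or nucleic acids, some as chains and most as a single unit. Parp1, Parp2 and Parp3 are nuclear sensors of DNA breaks. Parp9, Parp10, Parp11, Parp12 and Parp14 belong to the part of the family that interferons induce in many cell types, and several of them take part in antiviral defence. Macrophages make up much of a resting peritoneal wash and respond to microbial products and interferon within hours.

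Interferon acts on many genes through short promoter elements, among them the ISRE (interferon-stimulated response element) and the GAS (gamma-activated site). Promoter windows from RefSeq (GRCm38.p6), 250 bases before to 50 after a start, were in hand for 6 of the 9 members, and Parp9, Parp10 and Parp14 were not among them. The letters GAAANNGAAA (ISRE) were found on either strand in 3.44% of 32851 promoters and in 3.99% of 27025 genes. The letters TTCNNNGAA (GAS) were found in 8.30% of promoters and 9.55% of genes. Of the 6 members with a window, 1 held a match, Parp11. The windows shown are that of Parp11 at chr6:127446590-127446889 (plus strand), where the capitals mark an ISRE match on the minus strand and a GAS match that overlaps its end, that of Parp12 at chr6:39118300-39118599 (minus strand), and that of Dtx3l at chr16:35938978-35939277 (minus strand). Parp11 and Parp12 are shown because they were the interferon-linked members with a window, and Dtx3l because it lies between Parp14 and Parp9 on chromosome 16 and encodes the partner protein of Parp9.
Parp11: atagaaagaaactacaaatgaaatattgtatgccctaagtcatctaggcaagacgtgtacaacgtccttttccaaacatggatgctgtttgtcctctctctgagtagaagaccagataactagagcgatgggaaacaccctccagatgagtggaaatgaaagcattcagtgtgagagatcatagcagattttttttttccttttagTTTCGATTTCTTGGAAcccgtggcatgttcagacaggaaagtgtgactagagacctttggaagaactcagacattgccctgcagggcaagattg
Parp12: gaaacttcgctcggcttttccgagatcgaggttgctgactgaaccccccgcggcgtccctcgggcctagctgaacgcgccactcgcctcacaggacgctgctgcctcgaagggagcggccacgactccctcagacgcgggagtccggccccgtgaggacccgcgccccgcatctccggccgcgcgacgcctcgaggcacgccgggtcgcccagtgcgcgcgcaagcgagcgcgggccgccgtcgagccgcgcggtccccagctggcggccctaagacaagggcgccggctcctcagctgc
Dtx3l: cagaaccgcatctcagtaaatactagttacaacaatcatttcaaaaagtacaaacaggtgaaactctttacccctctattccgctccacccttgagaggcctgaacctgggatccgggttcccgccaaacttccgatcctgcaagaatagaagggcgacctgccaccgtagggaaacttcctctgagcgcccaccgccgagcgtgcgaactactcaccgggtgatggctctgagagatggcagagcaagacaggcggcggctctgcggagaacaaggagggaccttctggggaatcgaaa
The second listed start of Parp11 and the windows of Parp12, Dtx3l, Parp1, Parp2, Parp3 and Parp8 held neither set of letters. In a list of interferon signalling and reference interferon-stimulated genes, 6 of the 17 genes with a window held the ISRE letters: Cxcl10, Ifit1, Ifit3, Isg15, Rsad2 and Stat2. The GAS letters stood in 4 of the 17: Ifit2, Ifnar1, Ifnar2 and Irf1. Of 6 other PARP family genes with a window, Parp4 held the ISRE letters and Parp16 the GAS letters. Of 8 genes of partner proteins, Rnf146 and Xrcc1 held the ISRE letters and 0 the GAS letters. A match is only a description of letters in this window. Parp11, which held the match, differed by less than 2-fold in all 9 comparisons, and Parp12, which held none, was at least 2-fold higher wherever an AEPS array was set against one without AEPS. The signal of Parp11 was dim, from 45.5 to 75.1 before scaling. Parp9, Parp10 and Parp14 had no window, and any tie between these letters and the levels was not tested.

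Parp9, Parp10, Parp12 and Parp14 were higher on both arrays with AEPS than on each of the 3 arrays without it. So was Parp2, by 0.19, which was within scanner error. Of 15567 genes, 13.5% were higher on both AEPS arrays in this way, without overlap. Parp14, a large protein with macrodomains that bind ADP-ribose and, in mouse B cells, a co-activator of Stat6, had a level of 3.42 on the PBS array, 6.33 with AEPS, 4.82 with OVA, 6.20 with OVA+AEPS and 4.45 with OVA+Alum. Both AEPS arrays were the highest, the OVA and OVA+Alum arrays lay between, and PBS was the lowest.

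**Figure D1:**
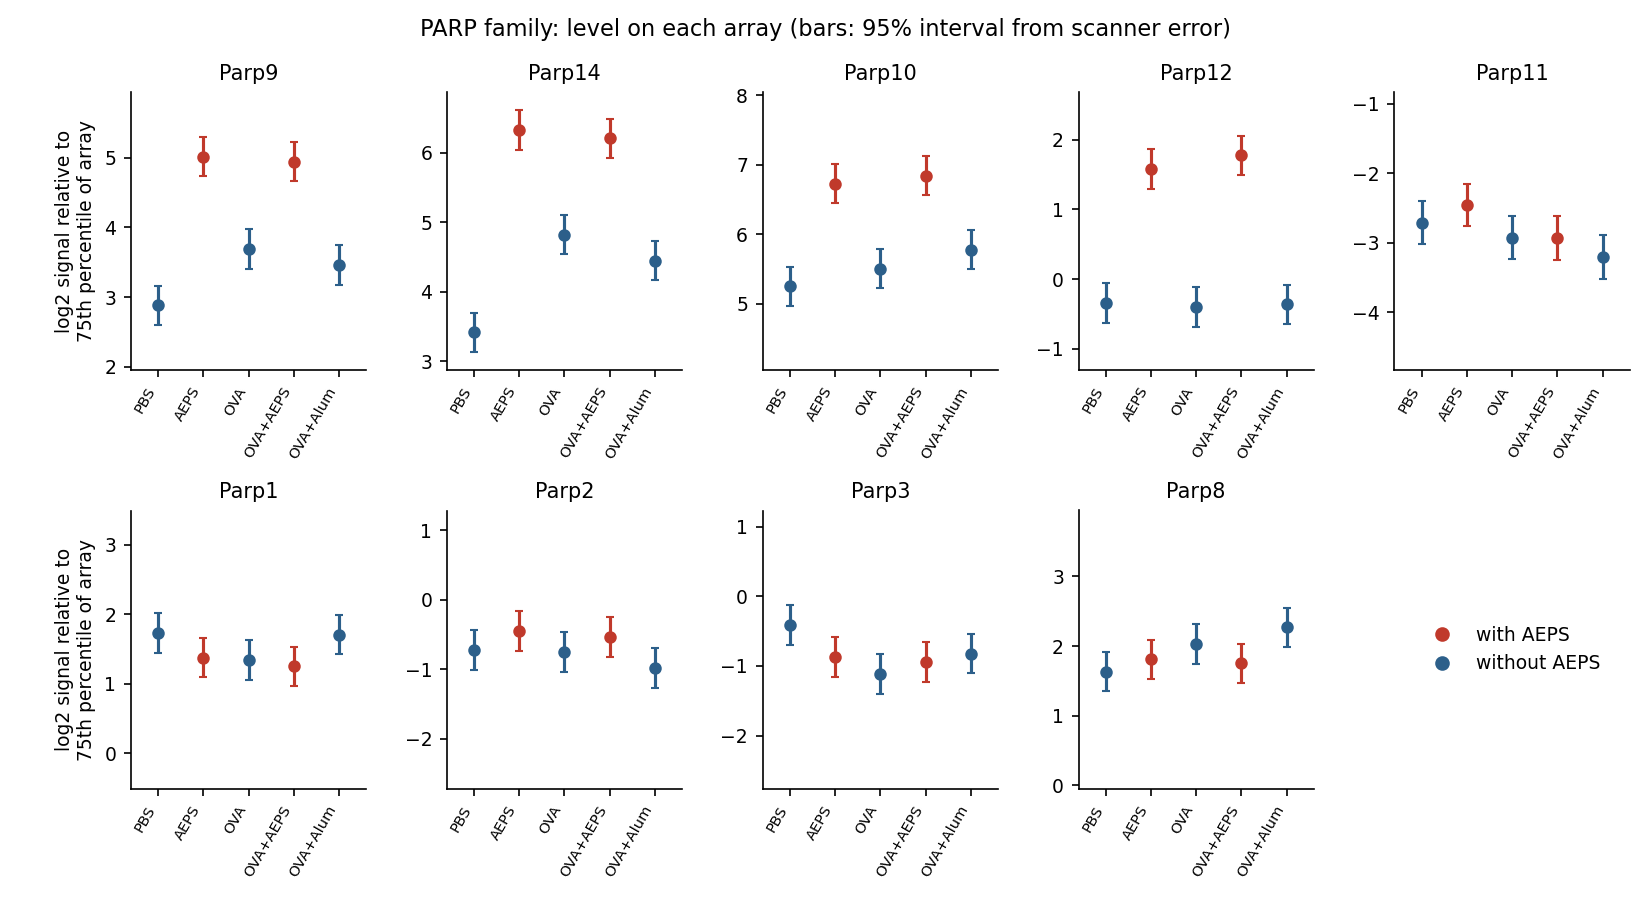
Level of each member on the 5 arrays, as log2 signal relative to the array's 75th percentile (vertical axis, 4 log2 units in every panel), with bars for the 95% interval from scanner error. Red points are arrays with AEPS and blue points those without. The red points of Parp9, Parp10, Parp12 and Parp14 stand above all blue ones, as do those of Parp2 by 0.19. Those of Parp11 do not.

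Parp9, a macrodomain protein that works with the ubiquitin ligase Dtx3l, had a level of 2.88 on the PBS array, 5.02 with AEPS, 3.69 with OVA, 4.95 with OVA+AEPS and 3.46 with OVA+Alum. The order of the arrays was that of Parp14. For both genes the 2 AEPS arrays, and the OVA and OVA+Alum arrays, did not differ from each other beyond scanner error, and both latter arrays stood above PBS by more than that error.

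Parp12, a mono-ADP-ribosyltransferase with CCCH zinc fingers, had a level of −0.35 on the PBS array, 1.58 with AEPS, −0.40 with OVA, 1.78 with OVA+AEPS and −0.36 with OVA+Alum. Its 3 arrays without AEPS lay together within scanner error, and its 2 AEPS arrays lay together above them. Parp10, a mono-ADP-ribosyltransferase first described as a partner of Myc, had a level of 5.25 on the PBS array, 6.73 with AEPS, 5.51 with OVA, 6.84 with OVA+AEPS and 5.78 with OVA+Alum. Its neighbouring arrays without AEPS did not differ beyond scanner error, although OVA+Alum exceeded PBS by 0.53 ± 0.20 (technical SE).

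Parp11, a mono-ADP-ribosyltransferase that in human cells has been tied to loss of an interferon receptor chain, had a level of −2.71 on the PBS array, −2.46 with AEPS, −2.93 with OVA, −2.93 with OVA+AEPS and −3.21 with OVA+Alum. The AEPS and other arrays overlapped, and no neighbours in the order differed beyond scanner error. Its scanner error was the largest among the members, with a technical SE of 0.22 for the difference of AEPS and PBS. Its processed signal before scaling was dim, from 45.5 to 75.1. Its lowest array without AEPS lay 0.75 below its highest with AEPS, and 0.33 below after normexp background correction and quantile normalization.

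The other members were measured on the same arrays. Parp1, which makes poly(ADP-ribose) chains at DNA breaks, had a level of 1.73 with PBS, 1.38 with AEPS, 1.34 with OVA, 1.25 with OVA+AEPS and 1.71 with OVA+Alum. Parp2, its close relative in repair, had a level of −0.72 with PBS, −0.45 with AEPS, −0.75 with OVA, −0.53 with OVA+AEPS and −0.98 with OVA+Alum. Parp3, which acts at double-strand breaks, had a level of −0.41 with PBS, −0.87 with AEPS, −1.12 with OVA, −0.95 with OVA+AEPS and −0.82 with OVA+Alum. Parp3 was highest on the PBS array, 0.41 above the next, a step just beyond scanner error. Parp8, a mono-ADP-ribosyltransferase of little known function, had a level of 1.63 with PBS, 1.81 with AEPS, 2.03 with OVA, 1.75 with OVA+AEPS and 2.27 with OVA+Alum. No neighbouring arrays in the order of Parp1, Parp2 or Parp8 differed beyond scanner error. The range over the 5 arrays was 0.48 for Parp1, 0.53 for Parp2, 0.71 for Parp3, 0.64 for Parp8 and 0.75 for Parp11. It was 1.59 for Parp10, 2.14 for Parp9, 2.18 for Parp12 and 2.91 for Parp14.

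AEPS alone was set against PBS, which asks what the polysaccharide does without antigen. Parp14 was 7.52-fold higher with AEPS, a log2 difference of 2.91 ± 0.20 (technical SE, 1 array each). Parp9 was 4.39-fold higher (2.14 ± 0.20), Parp12 was 3.81-fold higher (1.93 ± 0.20) and Parp10 was 2.78-fold higher (1.48 ± 0.20). Thus 4 of the 5 interferon-linked members and 0 of the 4 others were at least 2-fold higher, set beside 8.70% of 14935 genes past that fold upward and 6.89% downward. Of those genes, 177 had a higher difference than Parp14 and 693 a higher one than Parp10. The median difference was 1.93 over the interferon-linked members, −0.09 over the others and −0.17 over all genes. Parp11 differed by 0.25 ± 0.22 (technical SE) and Parp3 by −0.46 ± 0.21 (technical SE); with arrays scaled on their spike-in probes, Parp3 differed by 0.19, of the opposite sign.

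**Figure D2:**
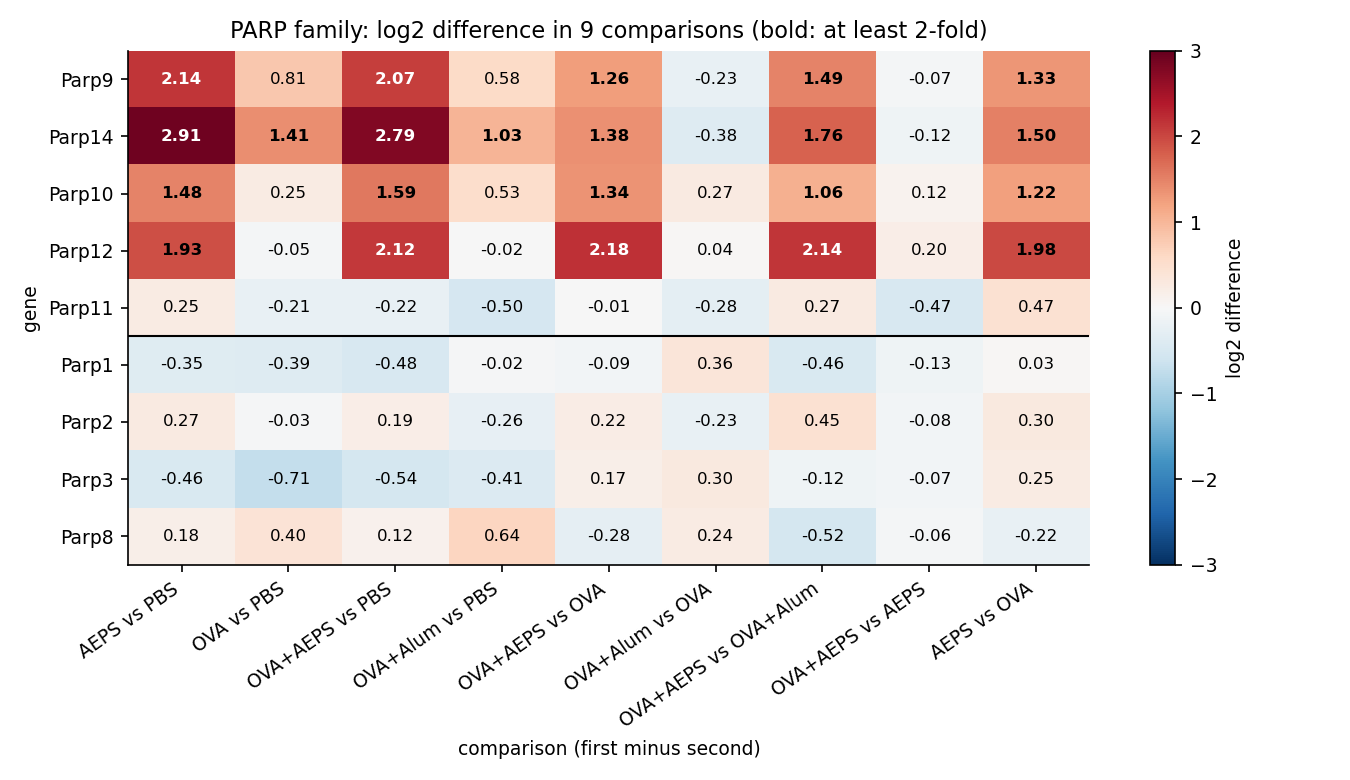
Log2 difference of each member (rows; interferon-linked members above the line) in the 9 comparisons (columns; first array minus second), with bold figures for differences of at least 2-fold. The bold figures are on Parp9, Parp10, Parp12 and Parp14, from 1.03 to 2.91, and all are positive.

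OVA alone was set against PBS. Parp14 was 2.65-fold higher with OVA (1.41 ± 0.20), and was the only member at least 2-fold different, set beside 6.67% of 15040 genes past that fold upward and 4.08% downward. Parp9 differed by 0.81 ± 0.20, which was beyond scanner error and under 2-fold. Parp3 differed by −0.71 ± 0.21, also beyond scanner error and under 2-fold. Parp10 differed by 0.25 and Parp12 by −0.05, both within it.

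OVA with an adjuvant was also set against PBS. With OVA+AEPS, Parp14 was 6.90-fold higher than with PBS, Parp12 was 4.36-fold, Parp9 was 4.19-fold and Parp10 was 3.02-fold higher. Again 4 of the 5 interferon-linked members were at least 2-fold higher and 0 of the 4 others, set beside 8.30% of 14994 genes past that fold upward and 6.18% downward. Parp3 differed by −0.54 ± 0.21 and Parp1 by −0.48 ± 0.20 in this comparison, under 2-fold and beyond scanner error. With OVA+Alum, Parp14 was 2.04-fold higher than with PBS (1.03 ± 0.20) and was the only member past 2-fold, set beside 6.45% of 15077 genes past that fold upward and 5.15% downward. After normexp background correction and quantile normalization this difference was 0.998, just under 2-fold. Parp8 differed by 0.64 ± 0.20 in the same comparison, Parp9 by 0.58 and Parp10 by 0.53. Parp11 differed by −0.50 ± 0.22 and Parp3 by −0.41 ± 0.20, both downward, under 2-fold and beyond scanner error. These 4 comparisons share the PBS array, so their values are not independent of one another.

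The addition of AEPS to the antigen was read from OVA+AEPS against OVA. Parp12 was 4.53-fold higher with AEPS (2.18 ± 0.20), Parp14 was 2.61-fold (1.38), Parp10 was 2.53-fold (1.34) and Parp9 was 2.39-fold higher (1.26). The count was 4 of the 5 interferon-linked members and 0 of the 4 others, set beside 4.08% of 14904 genes past that fold upward and 3.64% downward. Parp11 differed by −0.01 ± 0.22. The order of the members thus differed from that against PBS: Parp12 came first here, and 162 genes had a higher difference. The difference made by AEPS was smaller with OVA than without it by 1.53 ± 0.29 for Parp14 and by 0.88 ± 0.29 for Parp9 (technical SE of 4 spots). For Parp12 the 2 differences lay 0.25 ± 0.29 apart and for Parp10 they lay −0.14 ± 0.29 apart. Parp14 and Parp9 differed by 1.41 and 0.81 in OVA against PBS. The side without OVA rests on the PBS array, where slide row cannot be told apart from treatment. What made the 2 differences unlike was not tested.

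Alum was read from OVA+Alum against OVA. No member was at least 2-fold different, set beside 4.14% of 15058 genes past that fold upward and 5.45% downward. Parp14 differed by −0.38 ± 0.20, Parp9 by −0.23, Parp10 by 0.27, Parp12 by 0.04 and Parp11 by −0.28, all within the 95% interval of scanner error. For Parp12 that interval ran from −0.36 to 0.44.

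Both adjuvants were set against each other with the same antigen. Parp12 was 4.42-fold higher with OVA+AEPS than with OVA+Alum (2.14 ± 0.20), Parp14 was 3.38-fold (1.76), Parp9 was 2.80-fold (1.49) and Parp10 was 2.09-fold higher (1.06). Again 4 of the 5 interferon-linked members were at least 2-fold higher, set beside 6.76% of 14991 genes past that fold upward and 6.44% downward. With arrays scaled on their median the difference of Parp10 was 0.96, under 2-fold. Parp8 differed by −0.52 ± 0.20, Parp1 by −0.46 ± 0.20 and Parp2 by 0.45 ± 0.21, all under 2-fold and beyond scanner error.

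OVA+AEPS against AEPS asked what the antigen adds to the polysaccharide. No member was at least 2-fold different, set beside 2.06% of 14691 genes past that fold upward and 1.88% downward. Parp9, Parp10, Parp12 and Parp14 differed by −0.07, 0.12, 0.20 and −0.12. Parp11 differed by −0.47 ± 0.22, the only member beyond scanner error. AEPS against OVA gave a 3.96-fold higher signal for Parp12, 2.84-fold for Parp14, 2.51-fold for Parp9 and 2.33-fold for Parp10. These 4 of the 5 interferon-linked members were set beside 4.25% of 14845 genes past that fold upward and 3.24% downward. Parp11 differed by 0.47 ± 0.22 in AEPS against OVA, under 2-fold and beyond scanner error.

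The slide position of the arrays bears on these comparisons. The 5 arrays shared 1 slide. PBS was hybridised in row 1 and the 4 treated samples in row 2, and in any comparison with PBS the row cannot be told apart from the treatment. Row 2 held AEPS in column 1, OVA in column 2, OVA+AEPS in column 3 and OVA+Alum in column 4. Column thus cannot be told apart from treatment within row 2. Within row 2, the AEPS and OVA+AEPS arrays were at least 2-fold higher than the OVA array for Parp9, Parp10, Parp12 and Parp14. The OVA+AEPS array was so against OVA+Alum, where Parp10 fell to 0.96 with arrays scaled on their median. The AEPS array was higher than OVA+Alum by 0.95 for Parp10, under 2-fold, and at least 2-fold higher for Parp9, Parp12 and Parp14.

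Across all arrays, the lowest level with AEPS was set against the highest level without it. This gap was 1.93 for Parp12, 1.38 for Parp14, 1.26 for Parp9 and 0.95 for Parp10, and 0.19 for Parp2. The other 4 members overlapped between the AEPS arrays and the rest. Of 15567 genes well above background on at least 1 array, 1.09% were at least 2-fold higher on both AEPS arrays than on each other array and 0.572% at least 2-fold lower. The arrays did not overlap for 13.5% of genes with AEPS higher and for 23.7% with AEPS lower. A larger gap than that of Parp12 was held by 42 genes, than that of Parp14 by 89, than that of Parp9 by 113 and than that of Parp10 by 179, while 983 genes had a larger gap than Parp2.

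**Figure D3:**
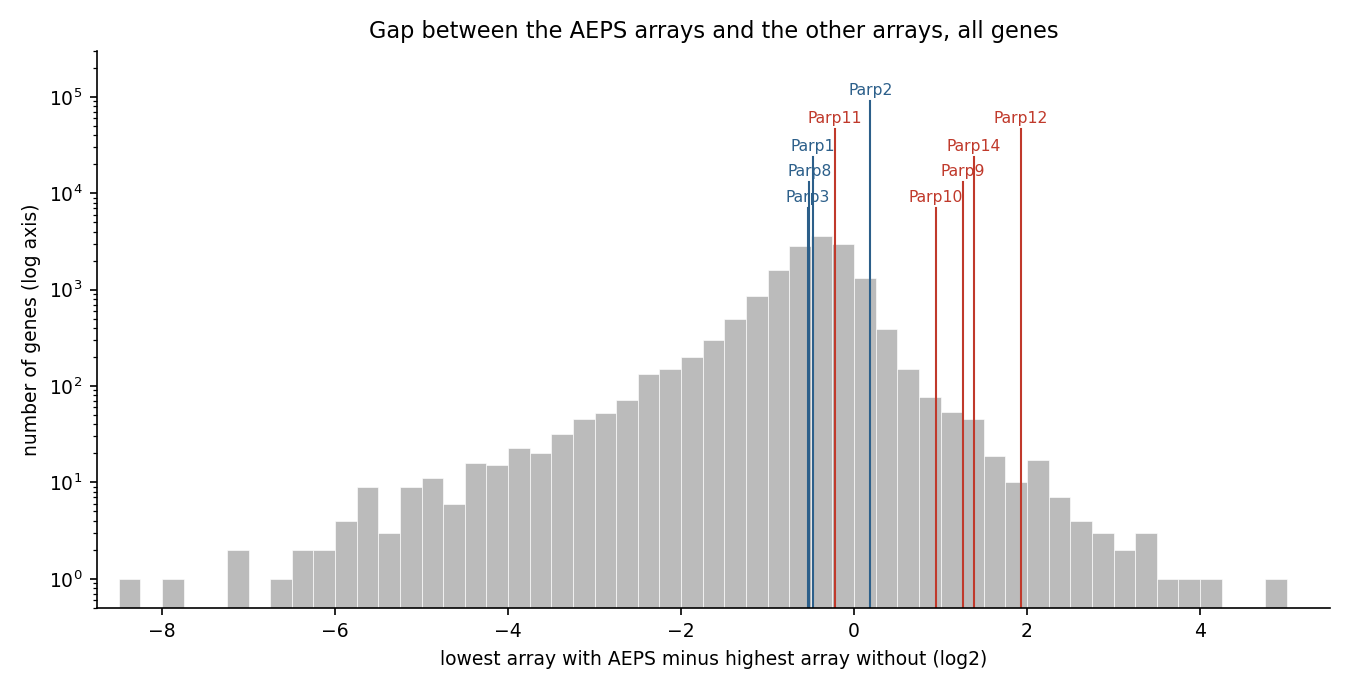
Number of genes (vertical, log axis) by the gap between the lowest array with AEPS and the highest array without it (horizontal, log2), over 15567 genes; values above 0 mean no overlap. Lines mark the members, in red the interferon-linked ones: Parp12 at 1.93, Parp14 at 1.38, Parp9 at 1.26 and Parp10 at 0.95 lie in the right tail, and Parp11 and 3 of the 4 others lie below 0.

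The rest of the family held a pair of genes whose AEPS arrays were also the highest. Tiparp, a mono-ADP-ribosyltransferase induced by the aryl hydrocarbon receptor, had a level of 1.93 with PBS, 4.04 with AEPS, 3.09 with OVA, 3.90 with OVA+AEPS and 2.51 with OVA+Alum. Its second probe read 0.63, 2.77, 1.84, 2.70 and 1.40 on the same arrays, the same order. Zc3hav1, an antiviral zinc finger protein that binds viral RNA and lacks transferase activity, had a level of 1.79 with PBS, 2.92 with AEPS, 2.21 with OVA, 3.22 with OVA+AEPS and 2.39 with OVA+Alum. Of the 7 listed genes outside the 9 members, these 2 were at least 2-fold higher with AEPS than with PBS and 0 were lower. In OVA+AEPS against OVA, Zc3hav1 alone passed 2-fold, by 1.01, and it was 0.92 with arrays scaled on their median and 0.98 after normexp and quantile normalization. Tiparp was the only one past 2-fold in OVA+AEPS against OVA+Alum, by 1.39. Parp4 of the vault particle, Parp6, Parp16 of the endoplasmic reticulum, and the tankyrases Tnks and Tnks2 stayed under 2-fold in all 9 comparisons by their brightest probe. The dimmer second probe of Parp16, well above background on 3 of the 5 arrays, differed by −1.60 in AEPS against PBS where the brighter one differed by −0.33. That second probe also passed 2-fold in the other comparisons of an AEPS array with an array without AEPS, by −1.06 to −1.47. The second probe of Tnks2, well above background on all 5 arrays, differed by 1.07 in OVA+Alum against PBS where the brighter one differed by 0.28.

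Dtx3l followed the members beside it on chromosome 16. It had a level of 3.01 with PBS, 4.96 with AEPS, 3.59 with OVA, 4.96 with OVA+AEPS and 3.49 with OVA+Alum. Its second probe read −1.80, 0.23, −1.04, 0.25 and −1.22, the same order of the AEPS arrays, OVA and PBS. Dtx3l differed by 1.95 in AEPS against PBS and by 1.38 in OVA+AEPS against OVA, beside 2.14 and 1.26 for Parp9 and 2.91 and 1.38 for Parp14. The other 7 listed partners, Hpf1 (which lets Parp1 and Parp2 modify serines), Xrcc1, Lig3, Aplf, Chd1l, Trp53bp1 and Rnf146, held 0 genes past 2-fold in either comparison by their brightest probe. The second probe of Aplf, well above background on all 5 arrays, differed by −1.32 in AEPS against PBS and by −1.09 in OVA+AEPS against PBS, where the brighter one differed by −0.79 and −0.84.

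Genes that remove ADP-ribose or use its free form mostly differed by less than 2-fold. Of 9 genes, Nudt16, a hydrolase whose human form can trim ADP-ribose from proteins, was the only one at least 2-fold different in AEPS against PBS, by −1.06. It was −0.40 with arrays scaled on spike-in probes, where Trpm2 was past 2-fold instead, at 1.56. Trpm2, a calcium channel opened by ADP-ribose, differed by 2.08 on the log2 scale in OVA+Alum against PBS, by 1.22 in OVA against PBS (0.94 after normexp and quantile normalization) and by −1.34 in OVA+AEPS against OVA+Alum, while Parg, the main enzyme that cuts poly(ADP-ribose), stayed under 2-fold throughout. A second probe of Macrod2, which removes ADP-ribose from proteins, differed by −1.26 in OVA+Alum against PBS and by −1.08 in OVA+Alum against OVA, where the brightest one differed by −0.84 and −0.80. Of the 11 genes of NAD supply and use above background in AEPS against PBS, Nampt was the only one past 2-fold; with spike-in scaling 3 were, with Nadk at 1.28 and Sirt1 at 1.29. Nampt, the rate-limiting enzyme of NAD salvage, had a level of 1.27 with PBS, 4.11 with AEPS, 2.99 with OVA, 3.92 with OVA+AEPS and 2.27 with OVA+Alum. It differed by 2.84 in AEPS against PBS and by 0.92 in OVA+AEPS against OVA. Cd38 and Bst1, which consume NAD, stayed under 2-fold in all 9 comparisons.

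**Figure D4:**
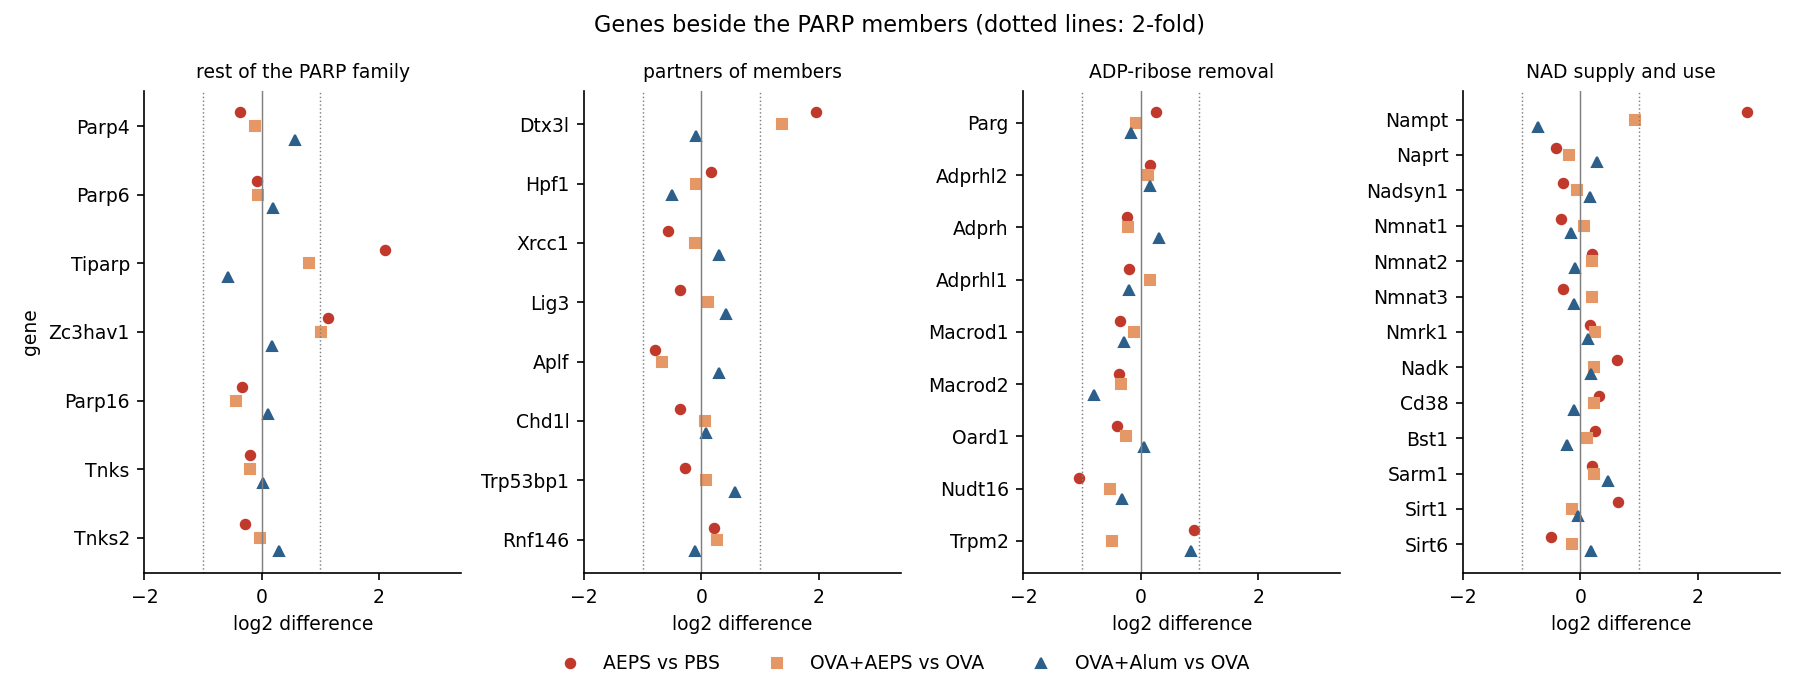
Log2 difference (horizontal) of genes of the rest of the family, partner proteins, ADP-ribose removal and NAD supply in AEPS against PBS (red circles), OVA+AEPS against OVA (orange squares) and OVA+Alum against OVA (blue triangles); dotted lines mark 2-fold. Nampt at 2.84, Tiparp at 2.11, Dtx3l at 1.95 and Zc3hav1 at 1.13 lie past the line in AEPS against PBS.

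Interferon genes were read for the same comparisons. A list of interferon signalling genes and of reference targets of interferon had 19 genes with a probe. In AEPS against PBS 12 of them passed 2-fold upward and 0 downward, with a median log2 difference of 1.88. In OVA+AEPS against OVA 11 were higher, in OVA against PBS 7 were (median 0.56), in OVA+Alum against PBS 5 were (median 0.66), and in OVA+Alum against OVA 0 were higher and 1 lower. The 5 became 7 with arrays scaled on their median, by quantile normalization or in the authors' deposited table, and 9 with spike-in scaling. Stat2 differed by 1.88, Irf7 by 1.97 and Irf9 by 1.35 in AEPS against PBS, and Ifit2 by 6.36. The receptor chains Ifnar1, Ifnar2, Ifngr1 and Ifngr2 stayed under 2-fold in all 9 comparisons. The list was chosen with earlier results of these arrays known, so its direction is not independent evidence.

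The arrays also differed in marker genes of the cells present. In a bulk sample, fewer cells of a type and less RNA per cell cannot be told apart. The 10 large peritoneal macrophage markers were well above background on all 5 arrays, and their summed signal, in multiples of each array's 75th percentile, was 1116 with PBS, 911 with AEPS, 935 with OVA, 1018 with OVA+AEPS and 540.0 with OVA+Alum. The 13 neutrophil markers with a probe summed to 1339 with PBS, 2702 with AEPS, 2185 with OVA, 2414 with OVA+AEPS and 2662 with OVA+Alum, with none at background. The T cell and NK cell sum ran from 141 with PBS to 273 with AEPS. Of its 9 markers, the granzyme genes Gzma (1.10) and Gzmb (3.21) were past 2-fold in AEPS against PBS, and the median over the 9 was −0.01. The B cell sum ran from 386 with OVA+AEPS to 641 with PBS, and of its 8 markers Cd79b alone was past 2-fold between these arrays, with levels of 8.81 with PBS and 7.57 with OVA+AEPS. Red cell markers, 5 of 6 of them well above background on every array, summed to 1810 with PBS, 2607 with AEPS, 704 with OVA, 1131 with OVA+AEPS and 1505 with OVA+Alum. The small macrophage, monocyte and dendritic cell sum lay between 198 and 241, the mast cell sum between 243 and 315, the eosinophil sum between 5.87 and 9.32 and the mesothelial sum between 2.23 and 6.42. Of the defining markers in the other lists, Xcr1 and Epx were not above background on any array. A sum is weighted to its brightest markers. In OVA+Alum against OVA, 3 of 7 mast cell markers were at least 2-fold lower (0 higher) and 7 of 7 mesothelial ones higher. Against PBS, 3 of 7 mast cell markers were at least 2-fold higher (0 lower) with each of AEPS, OVA and OVA+AEPS. With OVA+Alum 0 of them differed from PBS by 2-fold. In OVA+Alum against PBS, 7 of 10 large macrophage markers were at least 2-fold lower (0 higher). In OVA+AEPS against OVA+Alum, 4 of 13 neutrophil markers were at least 2-fold lower (0 higher), with a median of −0.75. In the same comparison 6 of 10 large macrophage markers were at least 2-fold higher (0 lower), with a median of 1.04. The neutrophil sum was higher on all 4 treated arrays than on the PBS array, and the part of these markers in the values of Parp9, Parp10, Parp12 and Parp14 was not tested.

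Among genes well above background on all arrays, those nearest to a member over its 4 differences from PBS were named, by Euclidean distance over 13676 genes. The 4 differences share the PBS array, and each has a technical SE of about 0.20, so the order of close neighbours is not resolved. Nearest to Parp9 was Ppm1k, at 0.15, followed by Mir17hg and Gbp9. Nearest to Parp10 was Ccrl2, at 0.14, followed by Csprs and Gm7609, and nearest to Parp14 was Slfn3, at 0.25, followed by Nampt and Zup1. Parp12 lay farther from its neighbours, with Tnp2 at 0.31, Ddx58 at 0.44 and Tcstv3 at 0.47. Nearest to Parp11 was Rhbdl2, at 0.14, followed by Ak6 and Specc1. Among the members, Parp12 lay 0.94 from Parp10 and Parp9 lay 0.98 from Parp10, while Parp11 lay 0.51 from Parp2 and 2.46 from Parp10.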

How the data were processed

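Total RNA of peritoneal cells was labelled with Cy3 and hybridised to 5 single-colour Agilent arrays (design Agilent-028005), per the labels' protocols and the file headers. The spot intensity is the processed signal deposited by the authors, already background-subtracted by Agilent Feature Extraction 10.7.1.1, per the file headers; the deposited flags mark spots well above background, saturated spots (0) and outliers (134 to 219 an array). Per array, 62976 spots held 3671 control spots, which were left out with the outliers, and 56.7% to 60.0% of probes were well above background. The authors' deposited table of log2 values correlates with log2 processed signal (r at least 0.9998) and has a median of 4.66 in every column; its normalization is not given in the sources used here. It served as an alternative.

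Spots of a probe were averaged, log2 intensities were centred on each array's 75th percentile, and the brightest probe stood for a gene. RefSeq accessions gave 1 symbol (GRCm38.p6) to 26582 of 55681 probes and none to 29099. A gene entered a comparison where its probe was well above background on at least 1 of the 2 arrays. Technical SEs come from the scanner's error of each signal; the number of arrays limits precision. There were no replicates, so the 9 comparisons have no test, and the call is 2-fold. Genes named are all 9 members, fixed lists of family, partner, ADP-ribose, NAD and interferon genes, and the 3 genes nearest to each interferon-linked member. The members and lists were chosen with earlier results of these data known. Some genes of the lists are counted but not reported here by name. Python 3.11.15, pandas 2.3.3, R 4.3.3 and limma 3.58.1 were used. Alternatives changed the scaling (median, spike-in probes, quantile, normexp with offset 50 then quantile), the filter on dim probes and the choice of probe.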

Additional observations from a re-analysis of the deposited data

Results flagged for a closer look

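In 3 members the difference made by AEPS had one sign without OVA and the opposite sign with it. Of these values, only that of Parp3 without OVA lay beyond scanner error. The changes of Parp8 and Parp11 lay within their 95% scanner interval, so opposed directions are not resolved for them. For Parp3 it was −0.46 without OVA and 0.17 with OVA, a change of 0.64 ± 0.29 (technical SE). For Parp8 it was 0.18 without and −0.28 with OVA, a change of −0.46 ± 0.29. For Parp11 it was 0.25 without and −0.01 with OVA, a change of −0.26 ± 0.31. Each side is 1 array against 1, no difference reached 2-fold, and the difference between both sides was not tested. With arrays scaled on spike-in probes, the values for Parp3 were 0.19 and 0.33, and those for Parp11 were 0.91 and 0.15, so that the signs no longer opposed.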

How the results depend on the processing

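Of the 8 other settings, 3 (both filters on dim probes and the choice of probe) could not move a member, since each has 1 probe that is well above background on all arrays. Under the 5 other scalings, 387 of 405 member differences moved by less than the 95% scanner interval, 18 moved by more, all of them with spike-in scaling, and none of the 22 differences of at least 2-fold changed sign. Spike-in scaling raised the median of all genes by 0.66 in AEPS against PBS, by 0.45 in OVA+AEPS against PBS and by 0.29 in OVA against PBS. With it the median of the interferon-linked members was 2.59 in AEPS against PBS and 2.52 in OVA+AEPS against PBS. Under spike-in scaling 2 members passed 2-fold upward in OVA against PBS, since Parp9 reached 1.10. This is set beside 10.6% of 15040 genes upward and 2.19% downward at that setting. With normexp and quantile normalization, 0 members passed 2-fold in OVA+Alum against PBS, set beside 3.41% of 15077 genes upward and 1.76% downward. Over all genes, the share of 2-fold differences that were upward was 55.8% in AEPS against PBS and 91.6% with spike-in scaling; the same pair was 62.0% and 82.9% in OVA against PBS, 57.3% and 86.7% in OVA+AEPS against PBS, 55.6% and 77.7% in OVA+Alum against PBS, 52.9% and 66.6% in OVA+AEPS against OVA, 51.2% and 66.6% in OVA+AEPS against OVA+Alum, 52.3% and 39.9% in OVA+AEPS against AEPS, and 56.7% and 79.7% in AEPS against OVA. With normexp and quantile normalization it was 68.8%, 80.5%, 68.6% and 66.0% in the 4 comparisons with PBS in that order, and 27.8% against 43.2% in OVA+Alum against OVA. With the median of each array it was 72.6% in OVA against PBS and 67.1% in OVA+Alum against PBS. The genes at least 2-fold higher in AEPS against PBS numbered 1299, 3285 with spike-in scaling and 774 with normexp, and the lower ones 1029, 303 and 351. Differences under 2-fold changed sign 22 times. The gap of Parp11 between AEPS arrays and the rest was −0.22, and 0.15 with spike-in scaling. A search by gene name alone was not run, since that column repeats the accession on every spot, nor was the slide as a block, since all arrays lay on 1 slide. No paired analysis was possible because each group has 1 array.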
